A study of Mus musculus with 12 samples.

Results

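The genes described here are the 10 members of the NF-kB system that the arrays name as subunits or inhibitors. The subunits are Nfkb1, Nfkb2, Rel, Rela and Relb. The inhibitors are Nfkbia, Nfkbib, Nfkbie and Nfkbiz, which encode IkB proteins, together with Tnfaip3, which encodes the ubiquitin-editing enzyme A20. They were taken by name, as every probe that the scanner files give to 1 of these symbols, from a set of genes chosen with earlier results of these data known. They came to 14 probes out of 41174 and to 10 genes out of the 18427 that were tested. All 10 had a probe that was kept, and 9 were well above background on all 12 arrays. The exception was Rel.

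The cells were bone marrow-derived macrophages (BMM), grown out of marrow with human rCSF1 at 200 ng/ml, from C57BL6/J mice (called C57BL6 here) and Balb/cAnNCrl mice (called Balb/c here). Each strain had 3 groups of 2 arrays: mock cells kept for 18 h without IL-4, and cells given recombinant mouse IL-4 at 10 ng/ml for 4 h or for 18 h. Every sample was a pool of cells from 2 males and 1 female aged 8 to 12 weeks. All groups shared the CSF1, a medium change on day 5, replating on day 6 and the start of the incubation on day 7. The treatment text that all samples share also speaks of LPS, but the samples themselves are described as IL-4 or none. The 4 h cells had no mock of their own duration, so every 4 h comparison also sets 4 h against 18 h of incubation. The 2 replicates came from different littermates, and each is a pool. The spread below is thus between pools, mixed with differences between arrays and, where a group lay on different slides, between slides. Each SE below comes from 1 limma estimate of spread per gene, shared by all groups. It is not the spread of only the groups compared.

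NF-kB is a family of dimeric transcription factors that switch on inflammatory genes in macrophages. In a resting cell the dimers are held in the cytoplasm by IkB proteins, and kinases of the IKK complex mark the IkB for destruction after a signal from Toll-like receptors or cytokine receptors. Many inhibitors are themselves NF-kB target genes and so form feedback loops. Rela and Rel with the p50 product of Nfkb1 act in the classical branch, and Relb with the p52 product of Nfkb2 acts in the alternative branch. IkB-zeta, the product of Nfkbiz, is unusual in that it sits in the nucleus and is needed to turn on a group of secondary genes. IL-4 acts through STAT6 and drives macrophages to the alternatively activated state.

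Each array is a one-colour Agilent array labelled with Cy3. A level below is the log2 of a probe's processed signal minus the 75th percentile of its array, so a step of 1 is a doubling. Levels are compared only within a probe, except that the marker sums below add linear levels over probes. Between 54.9% and 69.7% of spots were well above background. Replicate arrays correlated at 0.974 to 0.989 across genes. The 12 arrays lay on 3 slides of 4 arrays, and the strains overlapped on the second slide only. All 9 macrophage markers listed were well above background on all 12 arrays. Their summed level (linear, in units of the array's 75th percentile) was 636 to 729 in C57BL6 mock, 598 to 618 at 4 h and 537 to 576 at 18 h. In Balb/c it was 770 to 791 in mock, 613 to 717 at 4 h and 555 to 628 at 18 h. The brightest genes weigh most in this sum. Over the 12 arrays the log2 levels ran from 2.43 to 7.00 for Cd14, 4.61 to 7.12 for Fcgr1 and 5.87 to 7.00 for Csf1r. They ran from 7.06 to 7.42 for Adgre1, 7.53 to 7.96 for Lyz2 and 5.63 to 6.32 for Cd68. Those of Itgam, Mertk and C5ar1 ran from 3.79 to 4.53, -1.02 to 1.04 and -3.41 to 0.62. The summed level of 6 of 8 neutrophil markers was 2.30 to 3.37 in C57BL6 mock and 1.61 to 2.63 at 18 h, and in Balb/c it was 0.623 to 0.912 and 0.426 to 0.537. That of the 5 B cell markers was 2.15 to 3.10 and 1.03 to 1.58 in C57BL6, and 1.05 to 1.65 and 0.939 to 1.05 in Balb/c. Cd79b was the brightest of them, at log2 levels of -0.51 to 1.54, and each other B cell marker stayed at or below -1.89. The summed levels of the T cell, dendritic cell, stromal, erythroid and mast cell lists stayed at or below 1.43 on every array. The part of these shifts in the results below was not tested. In bulk RNA, fewer cells that hold a transcript and less transcript per cell cannot be told apart.

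At 18 h of IL-4 the inhibitors Nfkbiz, Nfkbie and Nfkbia were lower than in mock cells of both strains, and none of the 10 genes was called higher in any of the 4 comparisons of IL-4 with mock. At 4 h in C57BL6 cells, 2 of the 10 were called lower at a Benjamini-Hochberg adjusted p under 0.05 from limma, Nfkbiz and Nfkbie. Over all genes, 3.25% were called in either direction in that comparison and 1.68% were called lower. At 18 h in C57BL6 cells 4 of 10 were lower (Nfkbiz, Nfkbia, Nfkbie and Nfkb2), against 4.29% of all genes called and 2.60% called lower. At 4 h in Balb/c cells 1 of 10 was lower (Nfkbiz), against 1.43% called and 0.488% called lower. At 18 h in Balb/c cells 3 of 10 were lower (Nfkbiz, Nfkbia and Nfkbie), against 3.73% called and 2.36% called lower. Over all genes, 1.56%, 1.69%, 0.944% and 1.37% were called higher in these comparisons. The median change of the 10 genes was -0.42 and -0.75 on the log2 scale at 4 h and 18 h in C57BL6 cells. It was -0.17 and -0.67 in Balb/c cells. The median over all genes lay between -0.04 and 0.02 in the same comparisons.

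With the replicate number within each strain as a block, the counts of lower genes among the 10 were 3, 6, 2 and 5 in the same order, and none was higher. The labels do not mark that number as a shared batch, and in part it follows the slides. The block raised the share called over all genes to 16.6%, 17.4%, 7.32% and 15.1%, of which 9.57%, 10.6%, 3.91% and 8.28% were lower and 7.08%, 6.84%, 3.41% and 6.84% higher. Leaving out the 4 arrays of the second slide, a check chosen after seeing the data, lost most of the calls made without the block. It left a single array in the C57BL6 mock and 4 h groups and in the Balb/c 4 h and 18 h groups. The changes in that fit, in the same order, were -3.84, -3.08, -3.81 and -3.23 for Nfkbiz. They were -1.11, -1.51, -0.42 and -1.59 for Nfkbia, and -1.25, -1.46, -0.93 and -1.56 for Nfkbie.

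**Figure D1:**
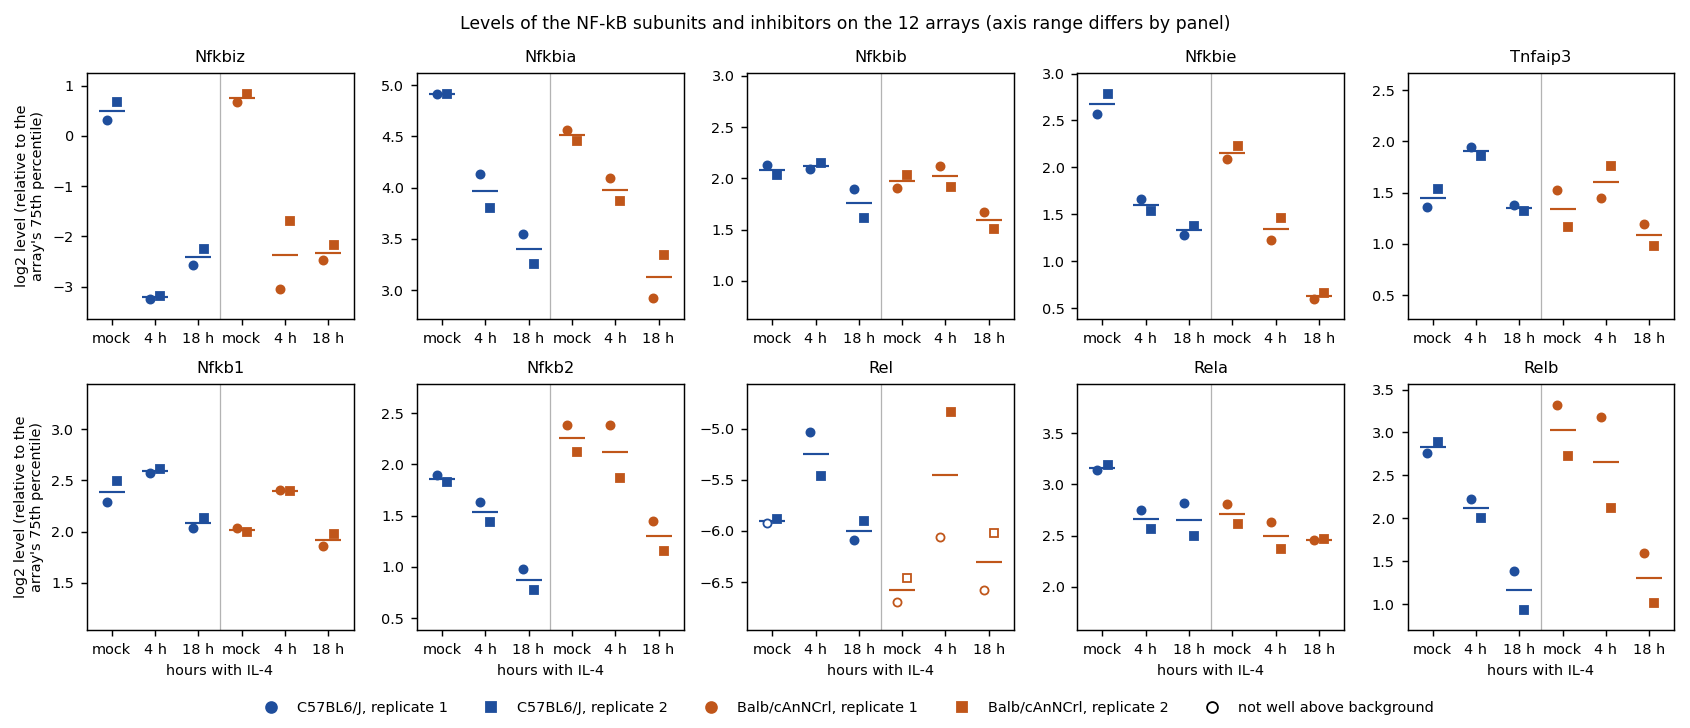
Log2 level of each of the 10 genes (main probe, relative to the array's 75th percentile) by strain and hours with IL-4. Points are single arrays, circles replicate 1 and squares replicate 2, bars are group means, and open points were not well above background. Nfkbiz, Nfkbia and Nfkbie lie lower on every IL-4 array than on the mock arrays of the same strain.

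**Figure D2:**
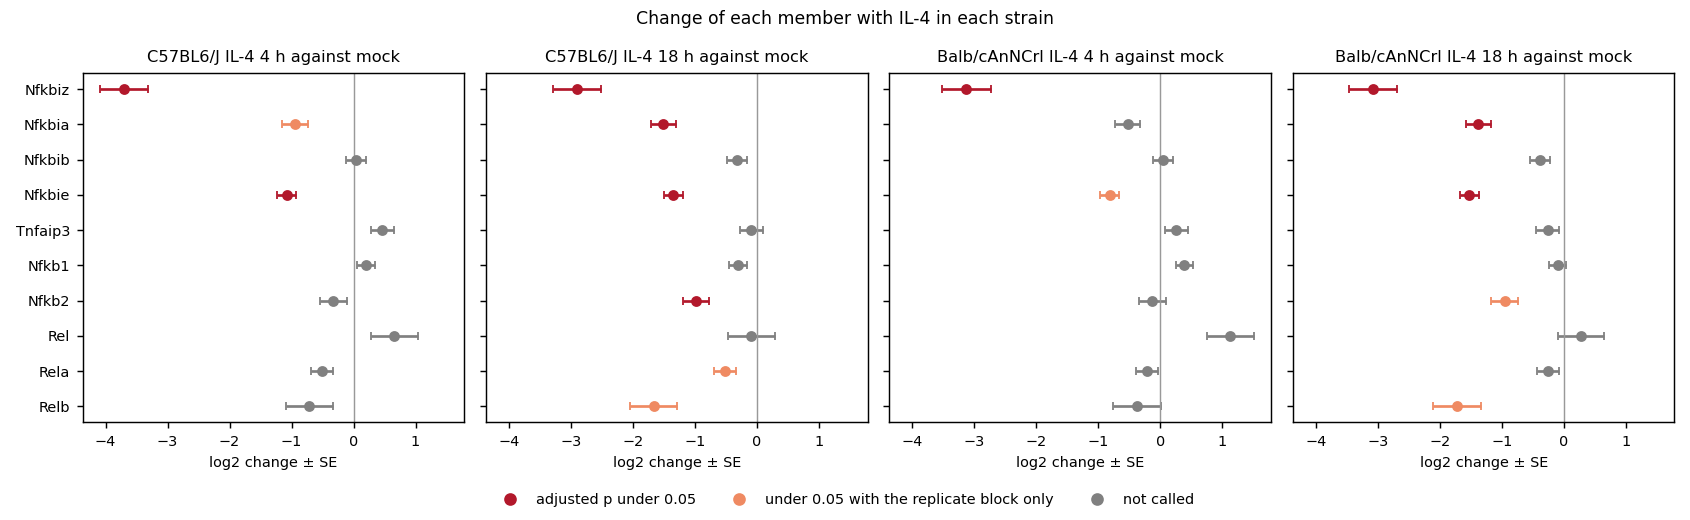
Log2 change with IL-4 for each gene, with its standard error, in the 4 comparisons with mock. Dark red marks an adjusted p under 0.05 and orange marks genes that pass only with the replicate block. Nfkbiz lies at -3.70, -2.91, -3.13 and -3.08, left of every other gene in each panel.

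Nfkbiz showed the largest change of the 10 genes in each of the 4 comparisons. On the C57BL6 mock arrays its level was 0.32 and 0.67, at 4 h it was -3.24 and -3.18, and at 18 h it was -2.57 and -2.26. On the Balb/c mock arrays it was 0.67 and 0.84, at 4 h -3.05 and -1.69, and at 18 h -2.48 and -2.17. All 8 IL-4 arrays lay below all 4 mock arrays, and the Balb/c 4 h pair was the widest, with replicate 2 above every other IL-4 array.

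In C57BL6 cells Nfkbiz fell 12.99-fold at 4 h (log2 change -3.70 ± 0.39, SE, limma adjusted p 0.00395) and 7.50-fold at 18 h (-2.91 ± 0.39, adjusted p 0.00612). In Balb/c cells it fell 8.74-fold at 4 h (-3.13 ± 0.39, adjusted p 0.0130) and 8.44-fold at 18 h (-3.08 ± 0.39, adjusted p 0.00477). The low level was thus reached by 4 h. Between 4 h and 18 h, the mean over strains differed by 0.42 ± 0.28 (adjusted p 0.523). Within a slide the change at 4 h was -3.56 and -3.84 on slides 2 and 3 in C57BL6 cells and -3.81 on slide 1 in Balb/c cells. At 18 h it was -3.08 on slide 3 in C57BL6 cells and -3.23 on slide 1 in Balb/c cells. The C57BL6 values at 4 h set 1 array against 1, and the value at 18 h set 2 against 1 mock array. Each Balb/c value set 1 array against 2 mock arrays. All but the -3.56 equal the changes in the fit without the second slide, so they are no separate check. The C57BL6 call at 18 h was lost without 18 h replicate 1 (adjusted p 0.0628) or mock replicate 2 (0.0542). The Balb/c call at 4 h was lost without mock replicate 1 (adjusted p 0.0752) or mock replicate 2 (0.0738). Without any single array, the change stayed at or below -2.448.

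Nfkbia encodes IkB-alpha, the inhibitor that is degraded first and made again within the classical feedback loop. Its level was 4.92 and 4.91 on the C57BL6 mock arrays, 4.14 and 3.80 at 4 h, and 3.55 and 3.26 at 18 h. The Balb/c levels were 4.57 and 4.45 in mock, 4.09 and 3.87 at 4 h, and 2.92 and 3.35 at 18 h. The 3 groups did not overlap in either strain, and the order was mock, 4 h, 18 h from high to low in both. At 18 h Nfkbia fell 2.85-fold in C57BL6 cells (log2 change -1.51 ± 0.21, SE, adjusted p 0.00687) and 2.60-fold in Balb/c cells (-1.38 ± 0.21, adjusted p 0.00980). At 4 h the change in C57BL6 cells was -0.94 ± 0.21 (adjusted p 0.0524, 0.0255 with the replicate block), and in Balb/c cells it was -0.53 ± 0.21 (adjusted p 0.415). The mean over strains at 4 h passed (-0.74 ± 0.15, adjusted p 0.0223), but not without any 1 of 6 arrays (adjusted p up to 0.0990). Those were both mock arrays of each strain and 4 h replicate 2 of each strain. The call at 18 h was lost in C57BL6 cells without mock replicate 2 (adjusted p 0.0509) or 18 h replicate 2 (0.0682). The Balb/c call was lost without mock replicate 1 (adjusted p 0.0671) or 18 h replicate 1 (0.0715). Within slide 3 the C57BL6 change at 18 h was -1.51, and within slide 1 the Balb/c change was -1.59. These equal the changes in the fit without the second slide.

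Nfkbie encodes IkB-epsilon, a slower feedback inhibitor. Its level was 2.57 and 2.79 on the C57BL6 mock arrays, 1.66 and 1.54 at 4 h, and 1.28 and 1.38 at 18 h. On the Balb/c arrays it was 2.09 and 2.23 in mock, 1.23 and 1.46 at 4 h, and 0.60 and 0.66 at 18 h. Again no group overlapped another within a strain, and 18 h was the lowest in both strains. Nfkbie fell 2.55-fold at 18 h in C57BL6 cells (log2 change -1.35 ± 0.16, SE, adjusted p 0.00354) and 2.88-fold in Balb/c cells (-1.53 ± 0.16, adjusted p 0.00230). Both calls held without any single array, with adjusted p at most 0.0440 and 0.0219. At 4 h in C57BL6 cells the change was -1.08 ± 0.16 (adjusted p 0.0107). That call was lost without 4 h replicate 1 (adjusted p 0.0743), mock replicate 2 (0.0798) or 4 h replicate 2 (0.115). At 4 h in Balb/c cells the change was -0.82 ± 0.16 (adjusted p 0.0531, 0.0195 with the replicate block). The mean over strains at 4 h was -0.95 ± 0.11 (adjusted p 0.00224). Within-slide changes at 4 h were -0.91 and -1.25 in C57BL6 cells and -0.93 in Balb/c cells. The -1.25 and -0.93 equal the changes in the fit without the second slide.

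Nfkbib encodes IkB-beta, an inhibitor with little feedback of its own. Its level ran from 2.03 to 2.15 over the 4 mock and 4 h arrays of C57BL6 cells and was 1.90 and 1.62 at 18 h. In Balb/c cells it ran from 1.91 to 2.12 before and was 1.67 and 1.503 at 18 h. The 18 h arrays were thus the lowest of each strain, by a small step. The change at 18 h was -0.32 ± 0.16 in C57BL6 cells and -0.38 ± 0.16 in Balb/c cells (adjusted p 0.369 and 0.317). Over both strains it was -0.35 ± 0.11 (adjusted p 0.110, 0.0434 with the replicate block).

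Tnfaip3 encodes A20, which removes activating ubiquitin chains upstream of IKK. Its level was 1.36 and 1.53 in C57BL6 mock, 1.95 and 1.86 at 4 h, and 1.38 and 1.32 at 18 h. For Balb/c it was 1.52 and 1.17 in mock, 1.44 and 1.76 at 4 h, and 1.196 and 0.98 at 18 h. The C57BL6 4 h arrays were above the other C57BL6 arrays, while the Balb/c groups overlapped. The changes against mock ranged from -0.26 to 0.46, with SE 0.19 and adjusted p between 0.274 and 0.867, and none passed with the block.

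Relb and Nfkb2, the pair of the alternative branch, were both low at 18 h. The level of Relb was 2.76 and 2.89 in C57BL6 mock, 2.22 and 2.01 at 4 h, and 1.39 and 0.93 at 18 h. The Balb/c arrays read 3.32 and 2.73 in mock, 3.18 and 2.12 at 4 h, and 1.60 and 1.01 at 18 h. The 18 h arrays lay below all other arrays of their strain, and the Balb/c mock and 4 h arrays overlapped. In each Balb/c group, replicate 2 was lower than replicate 1.

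The change of Relb at 18 h was -1.66 ± 0.38 in C57BL6 cells and -1.72 ± 0.38 in Balb/c cells. The adjusted p was 0.0531 and 0.0507, and with the replicate block it was 0.00501 and 0.00482. Both changes also passed without either Balb/c 4 h array (adjusted p 0.0239 and 0.0212), which leaves the estimates as they are. Over both strains Relb fell 3.24-fold at 18 h (-1.69 ± 0.27, adjusted p 0.00638), and this held without any single array (adjusted p at most 0.0328). Without the second slide the change was -1.58 and its adjusted p 0.0693. At 4 h the mean over strains was -0.54 ± 0.27 (adjusted p 0.322, 0.0359 with the block).

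The level of Nfkb2 was 1.89 and 1.83 in C57BL6 mock, 1.63 and 1.44 at 4 h, and 0.97 and 0.78 at 18 h. The Balb/c levels were 2.39 and 2.12 in mock, 2.38 and 1.87 at 4 h, and 1.45 and 1.16 at 18 h. As for Relb, the 18 h arrays were the lowest in each strain. Nfkb2 fell 1.98-fold at 18 h in C57BL6 cells (log2 change -0.99 ± 0.21, adjusted p 0.0443). That call was lost without any 1 of 10 of the 12 arrays (adjusted p up to 0.262) and held only without either Balb/c 4 h array. In Balb/c cells the change was -0.95 ± 0.21 (adjusted p 0.0540, 0.00469 with the block). It also passed without either Balb/c 4 h array (adjusted p 0.0339). Over both strains Nfkb2 fell 1.96-fold (-0.97 ± 0.15, adjusted p 0.00608, at most 0.0329 without any single array). Without the second slide it was -0.88 with an adjusted p of 0.115.

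Rela encodes p65, the main activating subunit of the classical branch. Its level on the brighter probe was 3.14 and 3.19 in C57BL6 mock, 2.75 and 2.56 at 4 h, and 2.82 and 2.49 at 18 h. The Balb/c arrays read 2.81 and 2.62 in mock, 2.64 and 2.37 at 4 h, and 2.46 and 2.46 at 18 h. The C57BL6 mock arrays were the highest of the strain, and the Balb/c mock and 4 h arrays overlapped. The change was -0.51 ± 0.18 at both times in C57BL6 cells (adjusted p 0.207 and 0.181). With the replicate block the adjusted p was 0.0502 at 4 h and 0.0482 at 18 h, so the 18 h change passed there. It was -0.21 and -0.25 in Balb/c cells, with the same SE (adjusted p 0.832 and 0.582). The mean over strains at 18 h was -0.38 ± 0.12 (adjusted p 0.112, 0.0314 with the block), and at 4 h it was -0.36 ± 0.12 (0.152 and 0.0399). A second Rela probe had the same sign in the 4 comparisons, from -0.37 to -0.13, and was not called.

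Nfkb1 encodes p105, the precursor of p50. Its main probe read 2.29 and 2.49 in C57BL6 mock, 2.57 and 2.61 at 4 h, and 2.04 and 2.13 at 18 h. The Balb/c arrays read 2.03 and 2.00 in mock, 2.41 and 2.39 at 4 h, and 1.86 and 1.98 at 18 h. In both strains the 4 h arrays were the highest and the 18 h arrays the lowest, with no overlap. Against mock the change at 4 h was 0.20 ± 0.14 in C57BL6 cells and 0.38 ± 0.14 in Balb/c cells (adjusted p 0.570 and 0.355). At 18 h it was -0.31 and -0.10 (adjusted p 0.309 and 0.816). The mean over strains at 4 h was 0.29 ± 0.10 (adjusted p 0.137, 0.0282 with the block).

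Rel encodes c-Rel and was close to the detection limit. It was well above background on 6 of 12 arrays, which were 5 of the 6 C57BL6 arrays and Balb/c 4 h replicate 2. Only the C57BL6 4 h and 18 h groups had it above background on every array, and it was kept through these groups. Its level was -5.92 and -5.88 in C57BL6 mock, -5.03 and -5.46 at 4 h, and -6.09 and -5.90 at 18 h. For Balb/c it was -6.69 and -6.46 in mock, -6.06 and -4.84 at 4 h, and -6.57 and -6.02 at 18 h. The 4 h arrays were the highest of each strain on these dim readings, except that Balb/c 4 h replicate 1 lay just below 18 h replicate 2. In Balb/c cells no mock array and only 1 of 2 4 h arrays measured it, so no fold is given there (adjusted p 0.295). Over both strains the fitted change at 4 h was 0.89 ± 0.27 (adjusted p 0.0996). It passed with the replicate block (0.0223) and without Balb/c 4 h replicate 1 (1.196, adjusted p 0.0157). With another background correction (normexp) its sign turned, to -0.12.

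Over both strains together, 3 of the 10 genes were lower at 4 h (Nfkbiz, Nfkbia and Nfkbie), against 6.72% of all genes called and 3.81% called lower. At 18 h 5 of 10 were lower (Nfkbiz, Nfkbia, Nfkbie, Nfkb2 and Relb), against 9.36% called and 5.88% called lower. The shares of all genes called higher were 2.91% and 3.48%, and none of the 10 was. With the replicate block 5 were lower and 2 higher (Nfkb1 and Rel) at 4 h, against 23.2% of all genes called (13.2% lower and 9.97% higher). At 18 h 7 were lower, against 25.0% called (14.1% lower and 10.9% higher). Rel passed the background filter only through C57BL6 groups given IL-4, so its call as higher is not independent of that filter. Without the second slide some of the calls made without the block were lost. The changes of Nfkbiz, Nfkbia and Nfkbie were then -3.82, -0.76 and -1.09 at 4 h, and -3.16, -1.55 and -1.51 at 18 h.

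Between 4 h and 18 h of IL-4, 3 of the 10 genes fell, against 3.73% of all genes called, 2.32% lower and 1.41% higher. They were Nfkbia (-0.71 ± 0.15, adjusted p 0.0388), Nfkb1 (-0.49 ± 0.10, adjusted p 0.0337) and Nfkb2 (-0.74 ± 0.15, adjusted p 0.0379). These are log2 changes over both strains. Of the 3, only Nfkbia had also been called lower at 4 h against mock, and Nfkb1 fell from 4 h levels that were the highest of its strain. Each call depended on most single arrays: Nfkbia lost it without any 1 array but Balb/c 18 h replicate 2, Nfkb2 without any 1 array but Balb/c 4 h replicate 2, and Nfkb1 without any 1 of the 8 IL-4 arrays, with adjusted p up to 0.166. These calls were also lost without the second slide, where the changes of Nfkbia, Nfkb1 and Nfkb2 were -0.79, -0.54 and -0.75. With the replicate block 8 of 10 were lower, all but Nfkbiz and Rela, against 16.9% of all genes called (8.55% lower and 8.32% higher). The adjusted p without and with the block was 0.114 and 0.0411 for Nfkbib, 0.0537 and 0.0153 for Nfkbie, 0.0721 and 0.0422 for Tnfaip3, and 0.169 and 0.0397 for Rel. Relb had the largest difference between these times, -1.15 ± 0.27 (adjusted p 0.0614, 0.00580 with the block, 0.0261 without Balb/c 4 h replicate 2). Rel also passed without Balb/c 4 h replicate 1 (-1.103, adjusted p 0.0301).

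Between the mock cells of the strains, 0 of 10 genes were called on their main probes, against 5.24% of all genes. With so small a share, that count does not set these genes apart from others. Another probe of Nfkb1 was called and is described below. Changes ran from -0.67 (Rel) to 0.39 (Nfkb2), as Balb/c minus C57BL6, and the lowest adjusted p was 0.111, for Nfkbie (-0.52 ± 0.16). Except for 2 C57BL6 arrays and 2 Balb/c arrays on the second slide, slide and strain were the same split, and no slide held mock arrays of both strains. The difference between strains in the response to IL-4 was called for 0 of 10 genes at either time, and for 0.00% of all genes. For Nfkbiz it was 0.57 ± 0.55 at 4 h and -0.17 ± 0.55 at 18 h, for Nfkbia 0.42 ± 0.29 and 0.13 ± 0.29, and for Nfkbie 0.26 ± 0.22 and -0.18 ± 0.22. These are log2 differences, Balb/c response minus C57BL6 response, with SE. At an unadjusted p under 0.05, limma gave 447 genes at 4 h and 977 at 18 h of the 18427 tested. That threshold passes a share of about 0.05 with no strain difference in any gene, so these counts alone do not show one. The 2 arrays of each group limit the precision of these differences.

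The 4 probes named Nfkb1 disagreed on the strains. The probe with the highest mean, A_51_P283759, was lower in Balb/c mock cells (-0.37 ± 0.14, adjusted p 0.187 in a fit of every kept probe). The probe A_52_P569539 read -1.67 and -1.02 in C57BL6 mock, and 0.76 and 0.42 in Balb/c mock. Both Balb/c mock arrays were above both C57BL6 mock arrays, and the difference was 1.94 ± 0.24 (adjusted p 0.00297), a call made for 5.62% of the 27373 probes in that fit. The difference was chosen for description after its value was seen. For A_52_P582969 it was 0.44 ± 0.25 (adjusted p 0.373) and for A_52_P32733 -0.81 ± 0.42 (adjusted p 0.317).

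At 4 h against mock in C57BL6 cells, all 4 Nfkb1 probes were higher, by 0.20, 0.83, 1.099 and 0.84 for A_51_P283759, A_52_P32733, A_52_P569539 and A_52_P582969. The adjusted p was 0.558, 0.384, 0.0523 and 0.143, so none passed. The 4 Balb/c values were 0.38, 0.44, 0.22 and 0.25, with adjusted p of 0.356 or more. From 4 h to 18 h all 4 were lower over both strains, by -0.49, -0.75, -0.44 and -0.55, of which the first passed (adjusted p 0.0356). At 18 h against mock in C57BL6 cells the probes differed in sign, from -0.31 for A_51_P283759 to 0.77 for A_52_P569539 (adjusted p 0.310 and 0.134). Which part of Nfkb1 each probe reads was not used here.

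**Figure D3:**
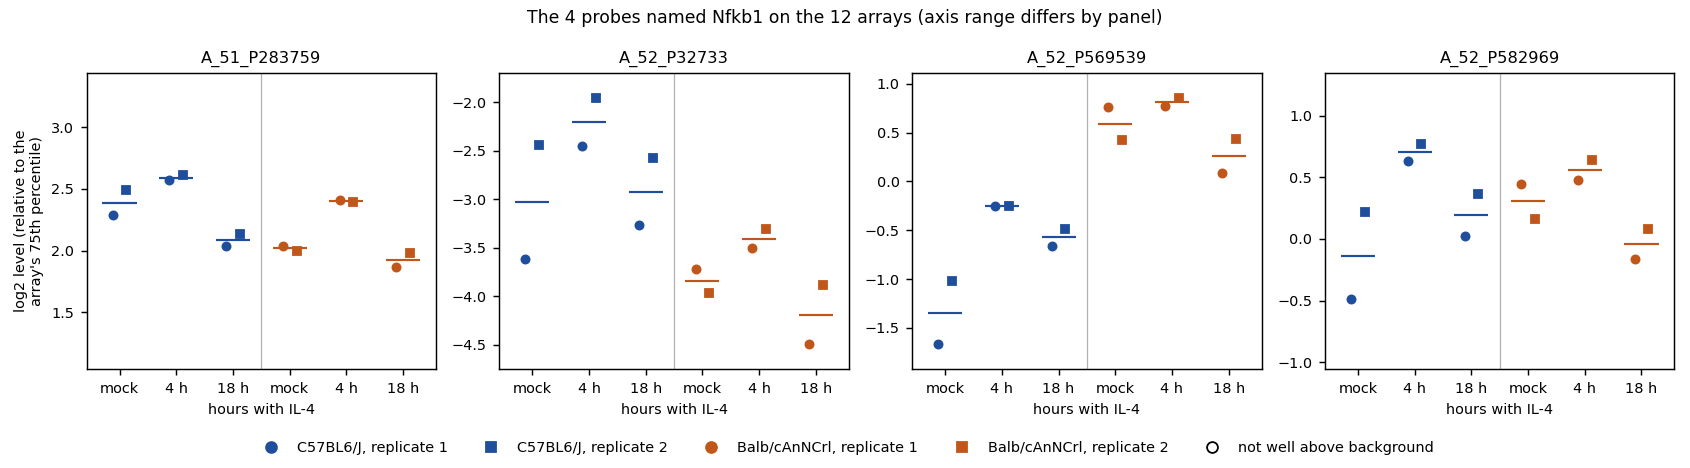
Log2 level of the 4 probes named Nfkb1 by strain and hours with IL-4, with single arrays as points and group means as bars. A_52_P569539 stands at 0.76 and 0.42 on the Balb/c mock arrays and at -1.67 and -1.02 on the C57BL6 mock arrays, while the main probe A_51_P283759 is lower in Balb/c mock cells.

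The promoters of members that fell at 18 h are shown beside that of Tnfaip3, which was not called, because NF-kB sites near the start are how several of these genes are known to be regulated. The sequences are RefSeq's on GRCm38.p6, the 250 bases before the gene's start on its own strand, 5′ to 3′, with matches to the NF-kB consensus (a 10-base motif, searched on both strands) in capitals.
Nfkbia, chr12:55492648-55492897, minus strand: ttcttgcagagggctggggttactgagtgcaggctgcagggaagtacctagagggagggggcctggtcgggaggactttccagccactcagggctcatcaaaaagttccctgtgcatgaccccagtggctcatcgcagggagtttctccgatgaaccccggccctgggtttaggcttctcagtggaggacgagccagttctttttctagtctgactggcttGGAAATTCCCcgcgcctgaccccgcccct
Nfkbie, chr17:45555450-45555699, plus strand: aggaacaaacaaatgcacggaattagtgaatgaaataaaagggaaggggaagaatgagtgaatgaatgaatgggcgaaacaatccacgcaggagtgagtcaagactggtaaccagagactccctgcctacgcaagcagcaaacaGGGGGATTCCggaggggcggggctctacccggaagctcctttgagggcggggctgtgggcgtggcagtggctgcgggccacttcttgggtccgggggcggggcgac
Nfkb2 (1 of its 3 windows), chr19:46304487-46304736, plus strand: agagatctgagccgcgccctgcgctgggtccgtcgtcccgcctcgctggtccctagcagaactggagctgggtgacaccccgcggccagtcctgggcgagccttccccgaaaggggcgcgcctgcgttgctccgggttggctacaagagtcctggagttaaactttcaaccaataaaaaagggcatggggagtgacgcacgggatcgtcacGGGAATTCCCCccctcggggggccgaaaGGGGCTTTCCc
Tnfaip3 (1 of its 2 windows), chr10:19015411-19015660, minus strand: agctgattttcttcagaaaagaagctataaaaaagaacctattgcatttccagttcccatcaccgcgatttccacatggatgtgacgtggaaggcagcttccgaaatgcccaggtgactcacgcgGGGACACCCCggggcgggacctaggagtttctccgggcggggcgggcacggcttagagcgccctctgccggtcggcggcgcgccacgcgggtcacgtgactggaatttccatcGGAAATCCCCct
Nfkbia holds 1 match, 29 to 20 bases before the start, and Nfkbie holds 1, at 106 to 97 bases. Nfkb2 holds 2 overlapping matches that begin 39 and 38 bases before the start, and 1 more at 11 to 2 bases. Tnfaip3 holds matches at 125 to 116 and at 12 to 3 bases before the start in the window shown, and none in its other window.

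Of the 10 genes, 7 had at least 1 promoter window of 300 bases in the RefSeq table, 10 windows in all. The others were Nfkbiz, Nfkb1 and Relb. An NF-kB match was found in windows of 5 of the 7 genes (Nfkbia, Nfkbie, Nfkb2, Tnfaip3 and Rel) and in 7 of the 10 windows, while 8.46% of all 32851 windows hold one. Windows of Nfkbib and Rela held none, and neither did 1 of the Tnfaip3 windows. Every Nfkb2 window held a match, and its windows 2 and 3 overlap. The motif TTCNNNNGAA, of the type that STAT6 is known to bind through, is its own reverse complement in form and was in 1 of the 10 windows (Tnfaip3), against 6.95% of all windows. Matches were thus found both in members that fell and in Tnfaip3. A match is a run of letters, not a measured site, and binding was not measured here.

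Around these 10 genes, the pathway was described with 6 lists of 86 genes, and the levels of several upstream and downstream genes moved with IL-4. In the kinase list (IKK complex and its kinases, 11 of 11 tested) the 4 comparisons gave 0, 1, 0 and 1 called lower and none higher. The orders here and below are C57BL6 at 4 h and 18 h, then Balb/c at 4 h and 18 h. Over all genes, without the block, 1.68%, 2.60%, 0.488% and 2.36% were called lower and 1.56%, 1.69%, 0.944% and 1.37% higher. The kinase called was Ikbke, which encodes IKK-epsilon, at -0.84 and -1.21 on the log2 scale at 18 h. The list's medians were 0.03, -0.32, -0.10 and -0.18. With the replicate block 2, 4, 0 and 3 kinase genes were lower and 1, 1, 0 and 0 higher, where the block calls 16.6%, 17.4%, 7.32% and 15.1% of all genes. The gene higher with the block was Ikbkg, which encodes the scaffold NEMO, at 0.41 and 0.39 in C57BL6 cells (adjusted p 0.403 at both times without the block, 0.0364 and 0.0398 with it). Ikbkg, and Traf5, Tnip1 and Bcl3 below, were chosen for naming after their values were seen.

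In the adaptor list (16 of 16 tested) 1, 1, 0 and 3 genes were called lower and none higher, with medians of -0.18, -0.27, -0.25 and -0.12. With the replicate block 5, 7, 3 and 6 were lower and 2, 1, 1 and 1 higher. Of all genes the block calls 9.57%, 10.6%, 3.91% and 8.28% lower and 7.08%, 6.84%, 3.41% and 6.84% higher. Traf5, another TNF receptor adaptor, had log2 changes of 1.32, 1.59, 0.88 and 0.89. Its adjusted p was 0.148, 0.0730, 0.540 and 0.354 without the block and 0.00562, 0.00240, 0.0260 and 0.0134 with it. Over both strains Traf5 was called higher at 18 h without the block (1.24, adjusted p 0.0317). Traf1, an adaptor of TNF receptors that is itself an NF-kB target, fell, with log2 changes of -1.62 at 4 h and -1.72 at 18 h in C57BL6 cells and -1.21 at 18 h in Balb/c cells. Irak2 and Myd88, which carry Toll-like receptor signals, fell at 18 h in Balb/c cells, with log2 changes of -1.30 and -0.67. Among 17 ubiquitin editing enzymes and other restrainers, all tested, 1 was higher in each comparison. It was Zc3h12a, the RNase Regnase-1 that degrades inflammatory messages, at 1.52, 0.94, 1.18 and 0.91. Pdlim2, a ligase that ends Rela activity in the nucleus, was the 1 gene of the list called lower, by -0.76 at 18 h in Balb/c cells. The medians of that list lay between -0.15 and -0.05. With the block its lower genes numbered 2, 3, 2 and 2, and the higher gene was again 1 in each comparison. Tnip1, which encodes a partner of A20, was lower with the block in all 4 comparisons, at -1.09, -1.03, -0.70 and -1.14 (adjusted p 0.0103, 0.00989, 0.0496 and 0.00788), and in none without it. Of the other nuclear IkB genes, Bcl3 and Nfkbid, 0 of 2 were called in these comparisons, and their medians lay between -0.74 and -0.36. With the block Bcl3 was lower in C57BL6 cells at 4 h (-1.13, adjusted p 0.0490, against 0.285 without) and at 18 h (-1.197, adjusted p 0.0403, against 0.229 without).

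Among inflammatory target genes 28 of 36 were tested, and 4, 8, 2 and 9 were called lower while 2, 1, 2 and 1 were called higher. The medians were -0.40, -0.79, -0.31 and -1.001 on the log2 scale. At most the 4 largest falls are named per comparison, so at 18 h a named gene may be called lower in a strain that is not given. Cxcl10, an interferon and NF-kB driven chemokine, fell 28.5-fold in C57BL6 cells and 41.6-fold in Balb/c cells at 18 h. It was also called lower at 4 h in C57BL6 cells, with a log2 change of -2.81. Tlr2, a receptor for bacterial lipoproteins, fell in all 4 comparisons, with log2 changes of -2.69, -3.19, -2.22 and -3.17. Clec4e, the receptor Mincle, fell in C57BL6 cells (-2.06 and -3.05) and at 4 h in Balb/c cells (-1.88). The chemokine gene Ccl3 fell at 4 h in C57BL6 cells (-2.32) and at 18 h in Balb/c cells (-2.39). Il1b fell 8.76-fold at 18 h in Balb/c cells and at least 3.91-fold in C57BL6 cells, where it was not well above background at 18 h.

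A pair of genes in the same list went the other way. Ier3, an early response gene, rose by 4.13, 3.19, 3.25 and 3.01, and Cd40, a co-stimulatory receptor, rose by 2.15 and 1.73 at 4 h. In a list of 10 genes known to need Nfkbiz (8 tested, 4 of them also in the inflammatory list), 1, 1, 0 and 0 were called lower and 1, 1, 1 and 0 higher. Over all genes 1.68%, 2.60%, 0.488% and 2.36% were called lower and 1.56%, 1.69%, 0.944% and 1.37% higher. The list's medians were 0.34, 0.19, 0.78 and 1.33 on the log2 scale, above 0 while Nfkbiz itself fell. The gene called lower was Ptges, a prostaglandin E synthase, at -0.96 and -1.06 in C57BL6 cells. The gene called higher was Edn1, the endothelin-1 precursor, which was not well above background on any mock array. It was at least 90.7-fold and 61.6-fold above mock in C57BL6 cells and at least 9.83-fold above mock at 4 h in Balb/c cells.

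With the replicate block the inflammatory genes called lower were 10, 15, 8 and 15, and 4, 3, 4 and 4 were called higher. The genes of the Nfkbiz list called with the block were 1, 2, 0 and 2 lower and 2, 3, 3 and 4 higher. The block calls 16.6%, 17.4%, 7.32% and 15.1% of all genes in these comparisons. Without C57BL6 mock replicate 1 or 2, or C57BL6 4 h replicate 1 or 2, the C57BL6 4 h count of 4 dropped to 1. The C57BL6 18 h count of 8 became 4 without either C57BL6 mock or 18 h array. The Balb/c 18 h count of 9 became 5 without either mock array and 3 without either 18 h array. The Balb/c 4 h count of 2 became 0 without mock replicate 1 and 1 without any other single array. Without the second slide most of these calls were lost, with a single array left in the C57BL6 mock and 4 h and the Balb/c 4 h and 18 h groups. Of the 37 results for 15 genes that the rule for naming gives in these lists, 13 kept an adjusted p under 0.05 without any single array. These were Traf1 at 18 h in C57BL6 cells, Ier3 in the 4 comparisons, Tlr2 in 3 (all but Balb/c at 4 h), Cxcl10 at 18 h in both strains, Clec4e at 18 h in C57BL6 cells, and Edn1 at both times in C57BL6 cells.

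**Figure D4:**
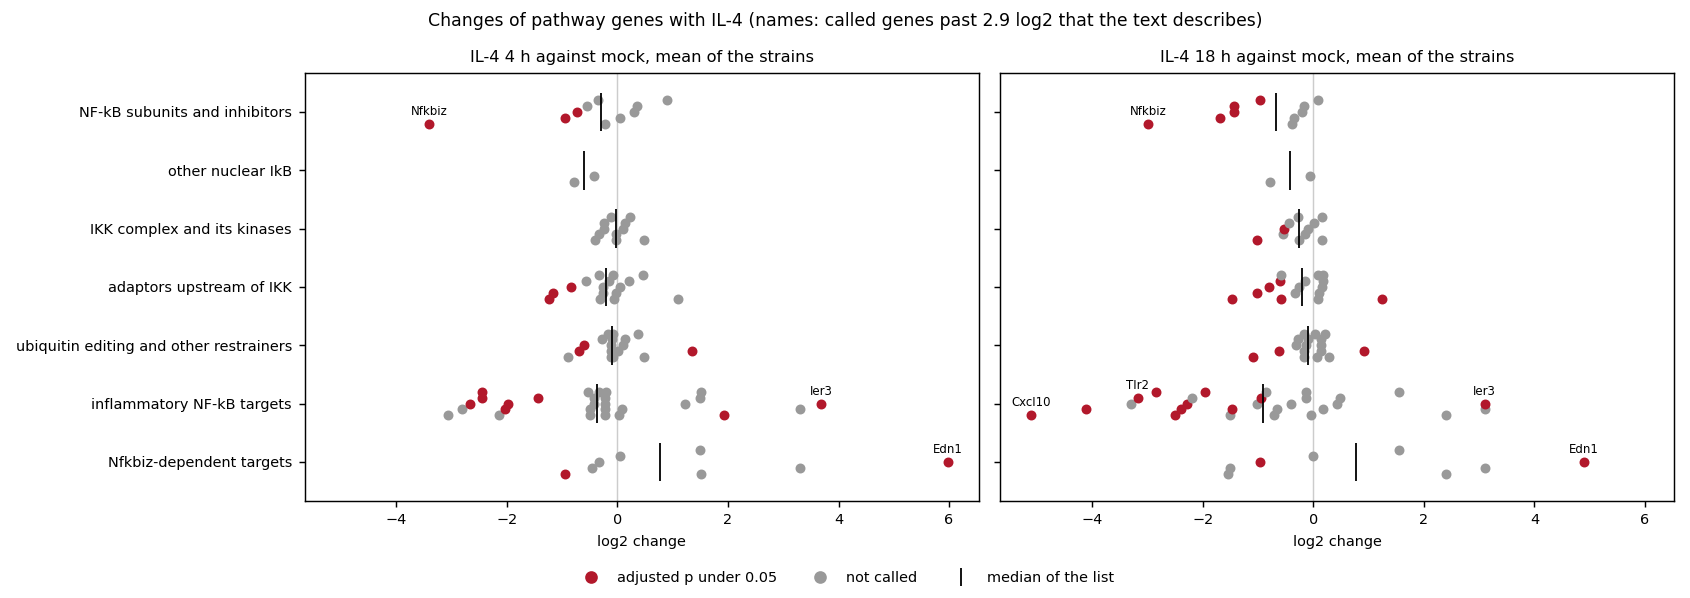
Log2 change with IL-4, as the mean of the strains, for the 10 genes and the 6 pathway lists at 4 h and at 18 h. Each point is a gene, red at an adjusted p under 0.05, the black bar is the list's median, and a gene in 2 lists is drawn in both. Cxcl10 and Tlr2 lie at the left of the inflammatory list and Ier3 at its right, and the plotted value of Edn1 is a fitted one with mock cells below background.

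The genes whose levels followed a member most closely were found over the 12 arrays, among 14157 genes well above background on all of them. Members themselves could not be chosen. For Nfkbiz it was Mtmr12, a myotubularin-related gene (Pearson r 0.975, Spearman rho 0.909). For Nfkbia it was Il18, a cytokine of the IL-1 family (0.974 and 0.958), and for Nfkbie it was Tdrd7 (0.981 and 0.972). For Nfkb2 it was Rasa4 (0.982 and 0.958), and for Relb it was Atg16l2 (0.977 and 0.972). For Nfkb1 it was Orc3 (0.960 and 0.944), the lowest r of the members named here. The arrays of a group share their treatment and strain, and arrays share slides, so these values describe likeness over 6 groups.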

How the data were processed

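RNA from 12 pooled macrophage samples was read on one-colour arrays. Spot intensities were background-subtracted by the authors' scanner software, Agilent Feature Extraction 9.5.1.1, per the file headers. The deposited ratio table was set against the scanner values: over at least 21164 probes the log2 difference had an SD of at most 0.00448 from each array's scaled signal divided by the average C57BL6 mock signal.

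The 10 members and the gene lists were chosen with earlier results of these data known. Control and outlier spots were left out, spots of a probe averaged, and log2 intensities reduced by the array's 75th percentile. A probe was kept if it was well above background on every array of some group, which left 27373 of 41174 probes. Of these, 17629 were named by accession, 3978 by current and 1871 by older symbol, and 3895 kept the file's name. The brightest probe stood for a gene. limma 3.58.1 (R 4.3.3) fitted 6 group means to 18427 genes, with Benjamini-Hochberg adjustment and a threshold of 0.05. The fit was tested on simulated data. All members were named, and from each list up to 4 called genes in each direction per IL-4 comparison, by size of change. Likeness was planned for at most 5 members, those with a call first, and is given for every member with a call.

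Replicate numbers come from the labels. Same-numbered arrays deviated together within strains (r 0.16 to 0.65 in 6 pairs of groups), so a fit with the number as a block is given for members where it changes a call, and for lists as counts. The labels do not say that a number marks a shared batch. In the pairs with the highest r, the number split the arrays by slide in the same way. These were Balb/c 4 h with 18 h (0.65) and C57BL6 mock with 4 h (0.62), where slide and shared batch cannot be told apart. Each other pair (r 0.16 to 0.50) holds a group whose arrays lay on the same slide. Alternatives covered background, scaling, filter, probes, slide, weights, arrays in the fit and single arrays.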

Additional observations from a re-analysis of the deposited data

How the results depend on the processing

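Of the 21 called results for the 10 genes, none reversed under any alternative, but many lost their call. With normexp, where the median change of all genes in C57BL6 cells at 18 h was -0.45 against -0.04 in the reported fit, the counts of members called were 0 and 1 in C57BL6 cells at 4 h and 18 h, 0 and 1 in Balb/c cells, 1 for the mean at 4 h and 0 for 18 h against 4 h. With only the arrays compared they were 1, 1, 0 and 0 in the single strains. Without the 4 arrays of slide 2 they were 0 and 0 in C57BL6 cells, 1 in Balb/c cells at 18 h, 1 and 3 for the means, and 0 for 18 h against 4 h. With probes above background on all 12 arrays they were 2 and 5 in Balb/c cells and 6 for 18 h against 4 h. The replicate block, as paired numbers, gave 2 and 5 in Balb/c cells, 7 for the mean at 4 h and 8 for 18 h against 4 h. Quantile scaling gave 5 in Balb/c cells at 18 h. For 18 h against 4 h, median scaling and no filter gave 0 and array weights 6. The causes were not tested. For the fits of this section other than the replicate block, the share of all genes called is not given, so these counts cannot be set against it.

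Leaving out single arrays gave 1 to 2 and 1 to 5 members in C57BL6 cells, 0 to 1 and 2 to 5 in Balb/c cells, 2 to 4 and 5 to 5 for the means, 0 to 2 for 18 h against 4 h, and 0 for the mock strains and the strain differences.

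Signs turned only for results that were not called. With normexp these were, on the log2 scale, Rel -0.999 (C57BL6, 4 h), Tnfaip3 0.039 and Nfkb1 0.011 (C57BL6, 18 h), Nfkb1 0.15, Rel -1.24 and Rela 0.050 (Balb/c, 18 h), Rel -0.12 (mean, 4 h), Nfkb1 0.080 and Rel -1.79 (mean, 18 h), Nfkbiz -0.30 and Rela 0.24 (18 h against 4 h), and Nfkbia -0.043 (strain difference, 18 h). With slide as a block they were Rel 0.0040 (C57BL6, 18 h), Nfkb2 0.072 and Relb 0.034 (Balb/c, 4 h), Rel -0.16 (Balb/c, 18 h) and -0.080 (mean, 18 h), Nfkb2 -0.075, Rel 0.11 and Relb -0.64 (mock strains), and Nfkbia -0.0028 (strain difference, 18 h). Without slide 2 they were Nfkb2 0.13 and Relb 0.15 (Balb/c, 4 h), Rel -0.055 (mean, 18 h) and Nfkbia -0.083 (strain difference, 18 h). Median scaling turned Nfkbib to -0.041 (Balb/c, 4 h) and -0.013 (mean, 4 h) and Rela to 0.044 (18 h against 4 h), and quantile scaling turned Nfkbia to -0.036 (strain difference, 18 h).

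Over fits without a single array, the values of results whose sign turned ran as follows. In Balb/c cells at 4 h Nfkb2 ran from -0.39 to 0.13, Nfkbib from -0.057 to 0.15 and Relb from -0.91 to 0.15. In C57BL6 cells Rel ran from -0.19 to 0.0023 at 18 h and Nfkbib from -0.0058 to 0.090 at 4 h. Of the means, Rela ran from -0.10 to 0.059 (18 h against 4 h), Rel from -0.045 to 0.23 (18 h) and Nfkbib from -0.0073 to 0.097 (4 h). In the mock strains Relb ran from -0.095 to 0.50 and Tnfaip3 from -0.28 to 0.080. Of the strain differences, Nfkbia ran from -0.082 to 0.35 and Nfkbiz from -0.35 to 0.0037 at 18 h, and Nfkbiz from -0.11 to 1.25 at 4 h. Signal near background limits Rel, and 2 arrays a group limit every test.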
